A study of Mus musculus with 12 samples.

Results

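The genes described here encode the Fanconi anaemia core complex, its DNA anchor and its substrates. The 10 genes Fanca, Fancb, Fancc, Fancd2, Fance, Fancf, Fancg, Fanci, Fancl and Fancm were taken by name, through the platform's gene symbols, out of 18820 genes with a probe set of their own. Of these 10, 9 could be measured. The 1 probe set that carries the name Fanci also carries Polg, so Fanci was not analysed here. Fancl and Fancd2 each had a probe set of their own. Further probe sets that they share with Vrk2 and Fancd2os were left out. Where a gene had several probe sets with a single symbol, the one with the highest mean over the 12 arrays stood for it, so the probe sets were chosen by that mean and by no difference between groups. The family itself was picked with earlier results of these data known.

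The arrays came from primary cultures of B lymphoma cells of l-MYC;B1-8f mice (strain C57BL/6J x BALB/c), whose tumours arise under a MYC transgene and whose B-cell receptor (BCR) can be removed, since Cre recombinase cuts its heavy chain segment out. All cultures, those of the controls included, were treated with TAT-Cre, a form of the recombinase that enters cells, and cells that had kept the receptor grew beside cells of that lymphoma that had lost it. After 4 days without or with CHIR99021, which inhibits the kinase GSK3, the populations were separated by flow sorting. Lymphomas 2564, 2646 and 2676 each gave 1 array to each of the 4 groups: BCR-positive untreated, BCR-negative untreated, BCR-positive with CHIR99021 and BCR-negative with CHIR99021. The sources used here give neither the inhibitor's dose nor the age of the mice. Each lymphoma is an independent tumour, and its 4 arrays share that tumour.

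The Fanconi anaemia pathway repairs DNA crosslinks that block replication forks, and in people its inherited loss causes bone marrow failure and a high risk of cancer. From work mostly on the human proteins, Fancm recognises the stalled fork and docks the core complex there. Within that complex Fancl is the ubiquitin ligase and is held by Fancb, while Fanca pairs with Fancg, and Fancc, Fance and Fancf form a module that binds the substrate. The complex attaches ubiquitin to Fancd2 and Fanci, which then clamp onto DNA and bring in nucleases and recombination proteins. The pathway acts mainly in S phase, and it also serves blood-forming cells under replication stress.

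Promoter windows of 300 bases (250 before the transcription start and 50 after) were matched by symbol in RefSeq, build GRCm38.p6, for 9 of the 10 genes, all except Fancd2. Those of Fancb, Fance and Fancg are shown, Fancb because it was the member that changed, Fance because its levels followed those of Fancb most closely, and Fancg because it held an E2F motif. Capitals mark CCAAT (or its complement ATTGG) and the E2F motif. E2F factors switch on genes of S phase, and CCAAT is bound by the factor NF-Y. Fancb lies at chrX:164980342-164980641 (plus strand), Fance at chr17:28313280-28313579 (plus strand) and Fancg at chr4:43010252-43010551 (minus strand), each read along the gene.
Fancb: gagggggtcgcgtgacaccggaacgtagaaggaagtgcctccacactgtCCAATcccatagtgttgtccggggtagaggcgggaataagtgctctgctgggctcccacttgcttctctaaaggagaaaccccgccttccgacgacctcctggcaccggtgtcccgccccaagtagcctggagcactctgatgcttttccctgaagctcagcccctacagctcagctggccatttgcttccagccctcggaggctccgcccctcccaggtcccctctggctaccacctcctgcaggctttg
Fance: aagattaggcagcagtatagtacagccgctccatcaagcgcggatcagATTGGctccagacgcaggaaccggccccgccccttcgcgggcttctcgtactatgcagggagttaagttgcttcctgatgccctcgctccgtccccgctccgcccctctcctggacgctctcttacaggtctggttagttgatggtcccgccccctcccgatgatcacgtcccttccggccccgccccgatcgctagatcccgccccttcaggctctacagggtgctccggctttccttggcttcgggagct
Fancg: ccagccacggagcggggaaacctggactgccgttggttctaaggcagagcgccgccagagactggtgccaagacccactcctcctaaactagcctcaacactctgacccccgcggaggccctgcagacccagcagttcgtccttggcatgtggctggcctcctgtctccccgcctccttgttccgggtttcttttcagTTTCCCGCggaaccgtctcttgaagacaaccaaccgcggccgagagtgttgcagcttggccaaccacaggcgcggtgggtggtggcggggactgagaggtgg

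Of the 9 windows, 1 held an E2F motif (TTTCCCGC, TTTCGCGC, TTTGCCGC or TTTGGCGC on either strand), that of Fancg, where it ran from base -52 to base -45 before the start. The same letters were in 2.27% of the 32851 promoter windows of the table. CCAAT, on either strand, was in 6 of the 9 windows (Fanca, Fancb, Fancc, Fance, Fancf and Fancm) and in 37.4% of all windows. In Fancb it ran from -201 to -197. TTTGAA, the CHR element of genes of late cell cycle, was in none of the 9 and in 17.9% of all windows. The E2F and CCAAT motifs share no letters in these windows, and a match describes the sequence only.

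The values are log2 expression values (RMA), so a difference of 1 is a doubling. The array medians lay between 4.71 and 4.92. The variable segment of the B1-8 heavy chain, which the deletion removes, checked the sort. BCR-negative cells held 7.92% to 38.2% of the signal of the BCR-positive cells of the same culture, in all 3 lymphomas and both treatments. Without CHIR99021 the share was 31.8% in lymphoma 2564, 38.2% in 2646 and 10.3% in 2676. With CHIR99021 it was lower in each, at 15.0%, 18.2% and 7.92%. The part of this difference in the results was not tested. Of the B cell markers Cd79a (10.89 to 11.77), Cd79b (11.03 to 11.70), Pax5 (9.62 to 10.67), Ebf1 (8.47 to 10.84) and Cd22 (8.34 to 9.84) were high on all arrays, and Ms4a1 (3.03 to 3.92), which encodes CD20, lay below the array medians. The mean of 5 T cell markers lay between 4.10 and 4.24 in all groups, that of 3 NK cell markers between 3.56 and 4.25, and that of 5 stromal markers between 4.48 and 4.65. Within these lists Cd3e (4.95 to 5.18), Col1a1 (5.32 to 5.63) and Col1a2 (5.04 to 5.32) lay above the array medians. Klrb1c, an NK cell marker, varied (3.62 to 5.76). Its difference with BCR loss in untreated cultures was 0.28 in lymphoma 2564, 1.48 in 2646 and -0.09 in 2676, and was not called. Of the myeloid markers Adgre1, Lyz2 and Cd14 did not exceed 4.37 on any array, while Csf1r (4.52 to 8.53) and Itgam (4.68 to 8.03) varied. With BCR loss in untreated cultures Itgam differed by 0.28, 1.40 and 0.60 in lymphomas 2564, 2646 and 2676. Csf1r differed by 0.34, 0.20 and 0.62 in the same order, and neither was called. Adgre1, Lyz2 and Cd14 did not keep the same sign across the lymphomas there. The mean of the 5 myeloid markers was 4.09 to 4.80 in untreated BCR-positive cells, 4.19 to 5.14 in untreated BCR-negative cells, 3.98 to 5.05 in BCR-positive cells with CHIR99021 and 4.29 to 5.11 in BCR-negative cells with it. The mean of 6 B cell markers was 9.25 to 9.59 without CHIR99021 and 8.73 to 9.32 with it. The part of these markers in the results was not tested.

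**Figure D1:**
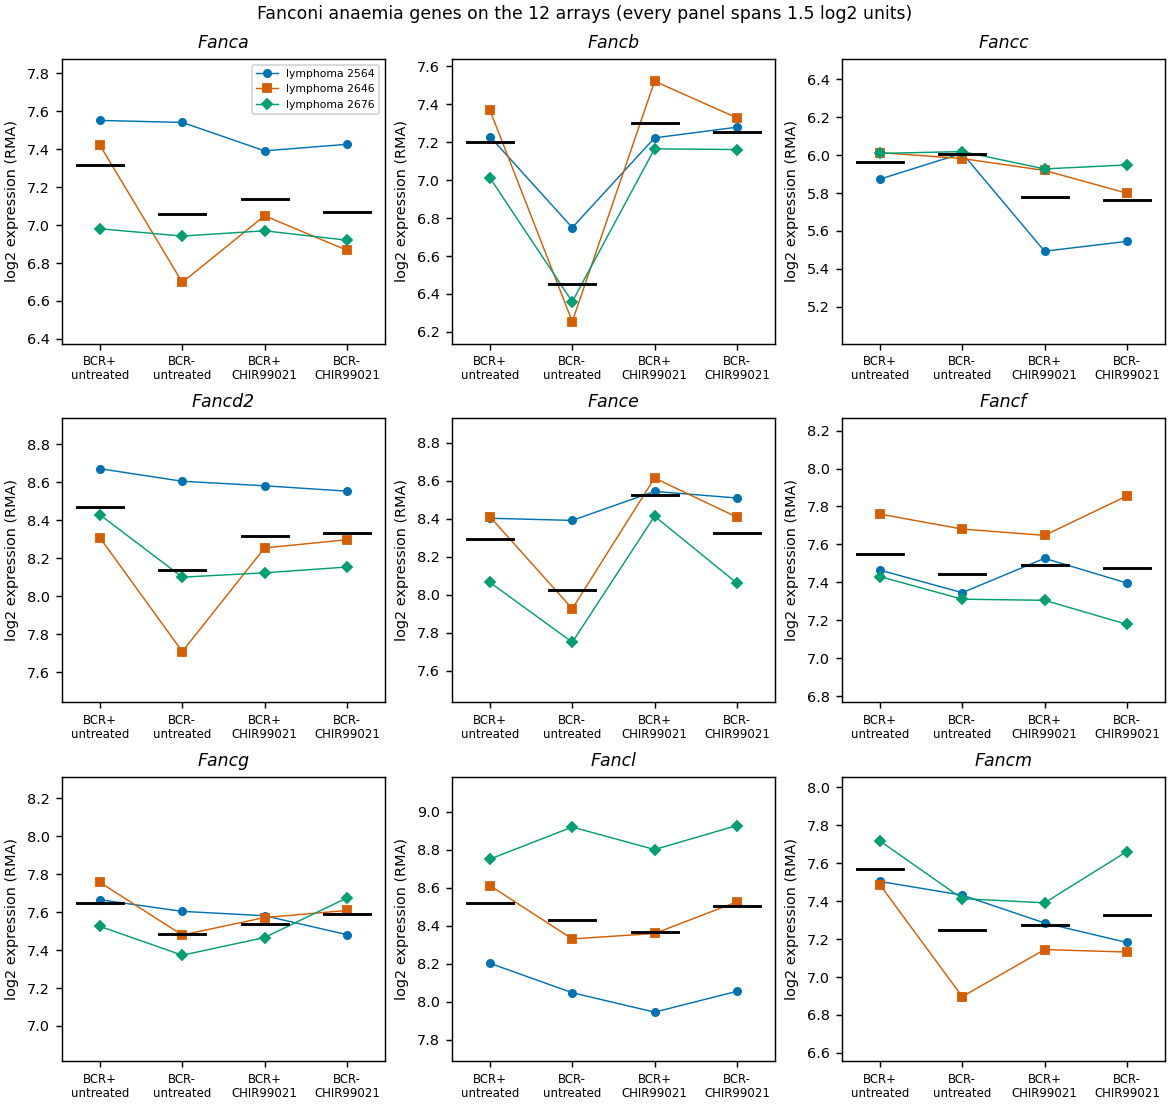
Log2 expression (RMA) of the 9 measured genes on the 12 arrays, 1 panel a gene, with the 4 groups on the horizontal axis. Coloured points joined by lines are single lymphomas, black bars are group means (n = 3). Fancb is low in untreated BCR-negative cells of each lymphoma (6.25 to 6.75) and between 7.01 and 7.52 on the other 9 arrays.

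Fancb, the partner that holds the ubiquitin ligase Fancl in the complex, followed the treatment groups. In untreated BCR-positive cells it measured 7.23 in lymphoma 2564, 7.37 in 2646 and 7.01 in 2676. In untreated BCR-negative cells the values were 6.75, 6.25 and 6.36 in the same order. With CHIR99021 they were 7.22, 7.52 and 7.16 in BCR-positive cells and 7.28, 7.33 and 7.16 in BCR-negative cells. The 3 untreated BCR-negative arrays were the lowest, with no overlap with any other group, and the other 3 groups overlapped each other. The share of all genes whose untreated BCR-negative arrays stand apart in this way was not counted. Ordered by mean, the groups ran from untreated BCR-negative (6.45 ± 0.261, SD, n = 3) over untreated BCR-positive (7.20 ± 0.180) and BCR-negative with CHIR99021 (7.26 ± 0.0858) to BCR-positive with CHIR99021 (7.30 ± 0.191). The last 3 did not differ beyond their spread. Differences between the groups made up 83.4% of the sum of squares of Fancb and differences between lymphomas 5.81%.

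Fancl, the ligase itself, varied mainly between the lymphomas. It lay between 7.94 and 8.20 in lymphoma 2564, between 8.33 and 8.61 in 2646 and between 8.75 and 8.93 in 2676, so the lymphomas did not overlap while the 4 groups did. The share of all genes with lymphomas so separated was not counted. Lymphoma accounted for 91.8% of its sum of squares and group for 3.25%. In the module around Fancf, Fancf itself also varied mainly between lymphomas (83.6% of the sum of squares). It lay apart in 2646 (7.65 to 7.86), while 2564 (7.35 to 7.53) and 2676 (7.18 to 7.43) overlapped. Fancc ran from 5.49 to 6.02, and its 2 lowest arrays were those of lymphoma 2564 with CHIR99021 (5.49 and 5.55).

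Fance, the subunit that contacts Fancd2, measured 8.40, 8.41 and 8.06 in untreated BCR-positive cells of lymphomas 2564, 2646 and 2676, and 8.39, 7.93 and 7.75 in untreated BCR-negative cells. With CHIR99021 it measured 8.54, 8.61 and 8.41 in BCR-positive cells and 8.51, 8.41 and 8.06 in BCR-negative cells. All 3 values of BCR-positive cells with CHIR99021 were at or above the highest of the untreated BCR-positive cells, and the other groups overlapped. Fancd2, the substrate, measured 8.67, 8.31 and 8.43 in untreated BCR-positive cells and 8.61, 7.71 and 8.10 in untreated BCR-negative cells. With CHIR99021 it measured 8.58, 8.25 and 8.12 in BCR-positive and 8.55, 8.30 and 8.15 in BCR-negative cells. Its groups overlapped, and lymphoma 2564 was the highest of the 3 in each group.

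Fancm, the fork-binding translocase, measured 7.50, 7.49 and 7.72 in untreated BCR-positive cells, 7.43, 6.90 and 7.41 in untreated BCR-negative cells, 7.28, 7.14 and 7.39 in BCR-positive cells with CHIR99021 and 7.18, 7.13 and 7.66 in BCR-negative cells with it. The untreated BCR-positive values lay above those of the other groups, apart from the BCR-negative array of 2676 with CHIR99021. Fanca and Fancg, which bind each other, ranged from 6.70 to 7.55 and from 7.37 to 7.76. Of the 9 genes, 4 (Fanca, Fancb, Fancd2 and Fancm) had their lowest value on the same array, the untreated BCR-negative one of lymphoma 2646. That array was also the lowest for 14.3% of all genes, the highest share among the 12 arrays, whose shares ran from 5.05%.

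The first comparison asked what BCR loss did in untreated co-cultures, where both populations compete. Fancb fell by 0.75 ± 0.122 on the log2 scale (limma mean ± SE, n = 3 lymphomas, adjusted p = 0.0191), so its level was 1.68-fold lower after BCR loss (95% interval of the log2 difference -1.02 to -0.48). The difference was -0.48 in lymphoma 2564, -1.11 in 2646 and -0.65 in 2676. Fancb was the 1 gene of 9 called at an adjusted p under 0.05, beside 4.2% of all genes called and 2.3% called lower. At an unadjusted p under 0.05 there were 4 members, beside 20.5% of all genes. The other members had changes of -0.33 ± 0.115 (Fancd2), -0.32 ± 0.104 (Fancm), -0.27 ± 0.0979 (Fance), -0.26 ± 0.120 (Fanca), -0.16 ± 0.0785 (Fancg), -0.11 ± 0.0770 (Fancf), -0.09 ± 0.0806 (Fancl) and 0.04 ± 0.0877 (Fancc). None of these 8 passed (limma, adjusted p = 0.110 to 0.882).

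The median change of the 9 genes was -0.26, against -0.00 over all genes tested, and 7 of the 9 were lower in all 3 lymphomas, beside 21.8% of all genes. The median was -0.07 within lymphoma 2564, -0.48 within 2646 and -0.15 within 2676. Fanca was the plainest case of that spread, with differences of -0.01, -0.72 and -0.04. Without lymphoma 2646 the median was -0.12, and it was -0.13 without either the untreated BCR-positive or the untreated BCR-negative array of 2646. The call of Fancb ended without lymphoma 2646 (-0.57, limma adjusted p = 0.173) or 2676 (-0.80, adjusted p = 0.138) and without the untreated BCR-positive array of 2646 (adjusted p = 0.107) or 2676 (adjusted p = 0.0799). It also ended without the lymphoma block (adjusted p = 0.280) and when the fit held no arrays but the 6 compared (adjusted p = 0.0970). Without the untreated BCR-negative array of 2564, limma called 4 members lower, which were Fancb, Fancd2, Fance and Fancm. Without the whole of lymphoma 2564 it called 2, Fancb and Fance.

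**Figure D2:**
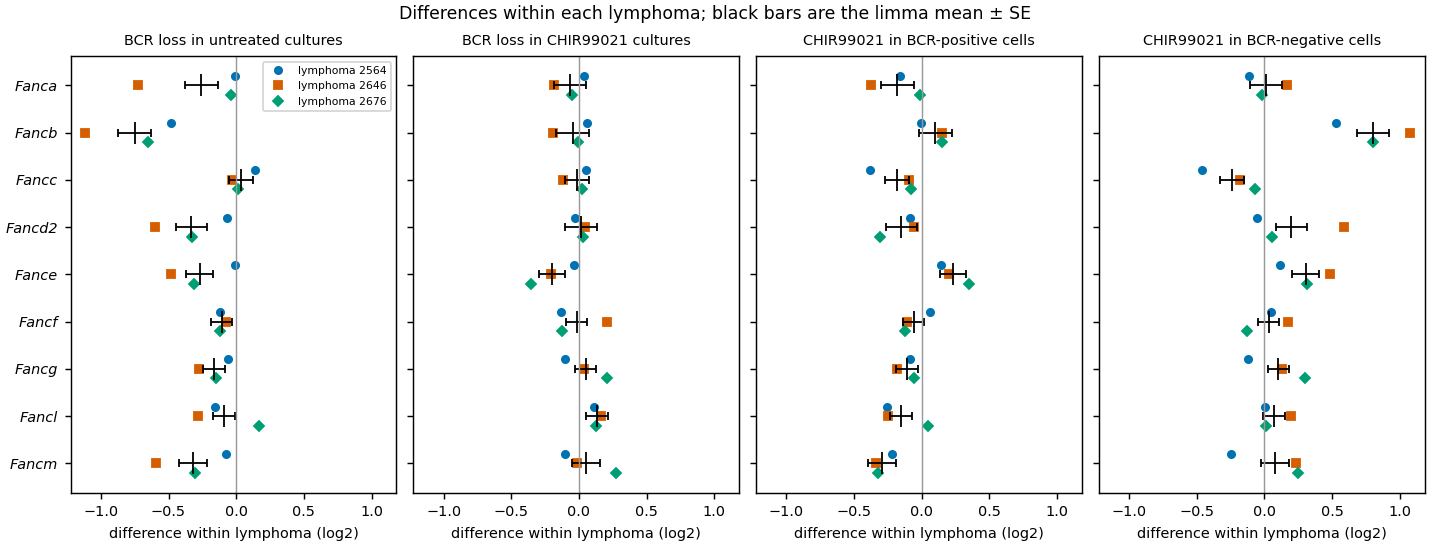
Differences within each lymphoma (coloured points, log2) for 4 comparisons, BCR-negative minus BCR-positive in the first 2 panels and CHIR99021 minus untreated in the last 2, with the limma mean and SE in black (n = 3). Fancb stands at -0.75 for BCR loss in untreated cultures and at 0.80 for CHIR99021 in BCR-negative cells, and near 0 in the other 2.

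With CHIR99021 in the culture, BCR-negative cells were again compared with BCR-positive ones. No member was called by limma, beside 0.0159% of all genes, and none had an unadjusted p under 0.05, beside 8.65% of all genes. Fancb stood at -0.05 ± 0.122 (limma, adjusted p = 0.943, 95% interval -0.32 to 0.23), with differences of 0.06, -0.19 and -0.00 in lymphomas 2564, 2646 and 2676. Fance had the lowest change (-0.20 ± 0.0979) and Fancl the highest (0.13 ± 0.0806). The median over the 9 genes was -0.02, against 0.00 over all genes, and changed sign with the arrays left out, from -0.05 without the BCR-negative CHIR99021 array of 2676 to 0.04 without the BCR-positive CHIR99021 array of 2646. It was 0.03 without lymphoma 2646 or the BCR-negative CHIR99021 array of 2564, 0.04 without lymphoma 2564 and -0.03 without lymphoma 2676.

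CHIR99021 in BCR-positive cells formed the third comparison. Limma called no member here either, beside 0.0744% of all genes, and 2 members, Fancm and Fance, had an unadjusted p under 0.05, beside 10% of all genes. Fancm had a change of -0.30 ± 0.104 (limma, adjusted p = 0.356), negative in all 3 lymphomas (-0.22, -0.34 and -0.33). Fance had a change of 0.23 ± 0.0979 (limma, adjusted p = 0.465), positive in all 3 (0.14, 0.20 and 0.35). Fancb stood at 0.10 ± 0.122. Of the 9 genes 5 were lower in all 3 lymphomas, beside 16.8% of all genes, and the median change was -0.15, against 0.00 over all genes. The median was -0.09 without lymphoma 2646, -0.08 without its untreated BCR-positive array and -0.10 without the BCR-positive CHIR99021 array of 2676.

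The fourth comparison asked what CHIR99021 did in BCR-negative cells. Fancb rose by 0.80 ± 0.122 (limma, adjusted p = 0.0126), 1.74-fold, with 0.53 in lymphoma 2564, 1.07 in 2646 and 0.80 in 2676. It was the 1 member of 9 called, higher, beside 3.68% of all genes called and 1.91% called higher, and 3 members had an unadjusted p under 0.05, beside 19% of all genes. This comparison and the first share the 3 untreated BCR-negative arrays, on which Fancb was lowest, so the fall and the rise are not separate evidence. Fance had 0.30 ± 0.0979 (adjusted p = 0.119 in limma), positive in all 3 lymphomas. Fancc had -0.24 ± 0.0877 (adjusted p = 0.167 in limma), negative in all 3, with -0.46 in lymphoma 2564. The other 6 ranged from 0.01 (Fanca) to 0.20 (Fancd2), and the median over the 9 was 0.08, against 0.01 over all genes. That median rested on single lymphomas. It was 0.00 without lymphoma 2646, 0.03 without its untreated BCR-negative array and 0.05 without the BCR-negative CHIR99021 array of 2676, against 0.22 without lymphoma 2564 and 0.17 without either BCR-negative array of 2564. After cyclic loess it was 0.04. In the same comparison limma called Cd79b, a B cell marker, lower (-0.33 ± 0.0604, adjusted p = 0.0240), negative in all 3 lymphomas. With CHIR99021 in BCR-positive cells Cd79b had -0.30 ± 0.0604 (limma, adjusted p = 0.107), also negative in all 3 and not called. Lyz2, a myeloid marker, was called higher in BCR-negative cells (0.46 ± 0.100, limma adjusted p = 0.0388). It was positive in all 3 lymphomas but stayed below the array medians. The other myeloid markers were not called there and went both ways, with Itgam at -0.59, Adgre1 at -0.04, Csf1r at 0.36 and Cd14 at 0.11. The part of these markers in the rise of Fancb was not tested.

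The change of Fancd2 in BCR-negative cells rested on lymphoma 2646, with -0.05 in 2564, 0.59 in 2646 and 0.05 in 2676. Fancm went from -0.25 in 2564 to 0.24 in 2646 and 0.25 in 2676. The rise of Fancb was not called without lymphoma 2646 (0.67, limma adjusted p = 0.126) or 2676 (0.80, adjusted p = 0.0885), nor without the BCR-negative CHIR99021 array of 2564 (adjusted p = 0.0750) or 2646 (adjusted p = 0.0651). It was not called without the lymphoma block (adjusted p = 0.205) or with only the 6 arrays compared (adjusted p = 0.0731). Without the untreated BCR-negative array of 2564, Fance was called higher as well (0.44, limma adjusted p = 0.0230).

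The interaction, the effect of BCR loss with CHIR99021 minus that without, was largest for Fancb among the members, at 0.70 ± 0.172 (0.54, 0.92 and 0.65 in the 3 lymphomas). It did not pass over all genes (limma, adjusted p = 0.928, unadjusted p = 0.00239). In this comparison limma called 0 of the 18820 genes, with 990 (5.26%) at an unadjusted p under 0.05, 2 of them members. Fancm (0.37 ± 0.147), Fancd2 (0.35 ± 0.162), Fancl (0.22 ± 0.114) and Fancg (0.21 ± 0.111) followed, and 8 of the 9 changes were positive, with a median of 0.21, against 0.01 over all genes. The median was -0.01 within lymphoma 2564, 0.45 within 2646 and 0.01 within 2676, and it was 0.11 over the other two without lymphoma 2646. CHIR99021-treated BCR-negative cells were then set against untreated BCR-positive cells. Fancb stood at 0.05 ± 0.122 (limma, adjusted p = 0.961, 95% interval -0.22 to 0.33). Limma called no member, beside 0.0159% of all genes, and 2 had an unadjusted p under 0.05, beside 8.74% of all genes. The lowest changes were those of Fanca (-0.25 ± 0.120), Fancm (-0.24 ± 0.104) and Fancc (-0.20 ± 0.0877), and the median of the 9 was -0.07, against 0.01 over all genes. It was -0.16 without the BCR-negative CHIR99021 array of 2646 and -0.12 without lymphoma 2676.

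The members were not alike in how they varied. After each lymphoma's own mean was taken out, Fancb correlated with Fance at r = 0.884, with Fancd2 at 0.730 and with Fancc at -0.393 over the 12 arrays. Fancm correlated with Fancg at 0.871 and with Fanca at 0.790. For Fancf the highest was 0.455, with Fancd2. With the mean of the remaining members, Fancd2 had r = 0.842, Fancm 0.756, Fanca 0.729, Fancg 0.717, Fancb 0.664, Fance 0.569, Fancl 0.399, Fancf 0.141 and Fancc -0.0641. These 12 arrays share 3 lymphomas, 4 groups and the arrays themselves, so the values describe these arrays only.

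**Figure D3:**
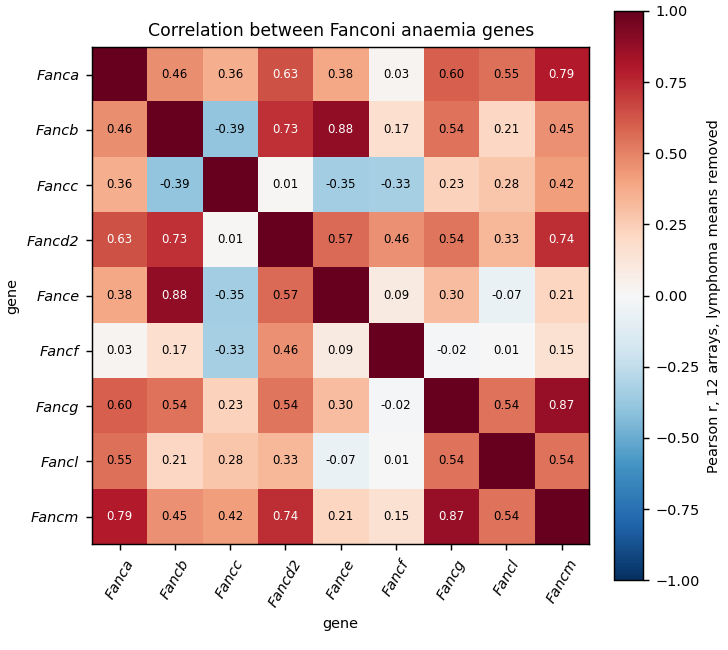
Pearson correlation between the measured Fanconi anaemia genes over the 12 arrays after each lymphoma's mean was subtracted, coloured from -1 to 1. Fancb and Fance (0.88) and Fancg and Fancm (0.87) are the closest pairs, while Fancc is negative with Fancb, Fance and Fancf.

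By the same measure, the genes outside the family whose levels were most like the mean of the 9 were Rnaseh2b (r = 0.979), a subunit of the nuclease that removes ribonucleotides from DNA, Slbp (0.978), which binds histone mRNA, Dnajc9 (0.978), a histone chaperone, Wdhd1 (0.977), a replisome protein, and Gmnn (0.972), which encodes geminin, the brake on origin licensing. For BCR loss in untreated cultures these had changes between -0.51 ± 0.131 (Gmnn) and -0.23 ± 0.0666 (Dnajc9), and none passed (limma, adjusted p = 0.0530 to 0.0813). They were picked by their likeness to the members on these same arrays. Their fall here follows from that choice and is no separate evidence. The mean over 27 DNA replication genes correlated with the mean of the members at r = 0.949, that over 12 genes of the ATR checkpoint at 0.976, that over 17 downstream genes at 0.948, that over 6 partners at 0.929 and that over 3 mismatch repair genes at 0.910. The means of 15 mitosis genes and of 10 genes of the E2F and RB families had r of 0.765 and 0.720, and those of 7 end-joining and 6 excision-repair genes -0.0288 and -0.172.

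Of 6 measured partners of the complex, 1 was called, lower with BCR loss in untreated cultures and higher with CHIR99021 in BCR-negative cells. Over all genes 2.3% were called lower in the former comparison and 1.91% higher in the latter. Ube2t, the ubiquitin-conjugating enzyme that works with Fancl, fell by 0.32 ± 0.0610 with BCR loss in untreated cultures (limma, adjusted p = 0.0292). It rose by 0.32 ± 0.0610 with CHIR99021 in BCR-negative cells (adjusted p = 0.0258 in limma). The other 5 measured partners did not pass in either comparison: Faap100 (-0.30 ± 0.107 with BCR loss), which binds Fancb, Usp1 (-0.29 ± 0.0844), which takes the ubiquitin off again, the Fancm-binding histone-fold genes Cenpx (-0.27 ± 0.0925) and Cenps (-0.27 ± 0.0743), and Faap20 (-0.21 ± 0.0838). All 6 mean changes were negative for BCR loss (median -0.28), with 4 genes lower in all 3 lymphomas, beside 21.8% of all genes. Faap20 and Faap100 were near 0 in lymphoma 2564. For CHIR99021 in BCR-negative cells all 6 changes were positive (median 0.16). Faap24 and Wdr48 were not analysed here.

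Among 17 measured genes that act downstream of the ubiquitin step, 2 were called lower with BCR loss in untreated cultures and none higher. Over all genes 2.3% were called lower there. The 2 were the recombination gene Rad51c (-0.40 ± 0.0765, limma adjusted p = 0.0292) and Rmi1 (-0.27 ± 0.0551, limma adjusted p = 0.0329), a partner of the Bloom helicase. Rad51c also rose with CHIR99021 in BCR-negative cells (0.36 ± 0.0765, limma adjusted p = 0.0363). It was the only called gene of these 17, beside 1.91% of all genes called higher. Of 12 genes of the ATR checkpoint, which signals stalled forks, Rpa1 (-0.37 ± 0.0689) and Clspn (-0.43 ± 0.0897) fell with BCR loss (adjusted p = 0.0273 and 0.0338 in limma). These 2 of the 12 were called lower, beside 2.3% of all genes. With CHIR99021 in BCR-negative cells limma called none of the 12, with 6 at an unadjusted p under 0.05, beside 19% of all genes. All 12 changes there were positive (median 0.23), with Rpa1 at 0.27 ± 0.0689 and Rad1 at 0.32 ± 0.0890.

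Other repair routes had calls in both directions for BCR loss in untreated cultures, where 4.2% of all genes were called. In BCR-negative cells of untreated cultures Xrcc6, which encodes the end-joining protein Ku70, was higher by 0.59 ± 0.118 and Ercc5, an excision nuclease, by 0.43 ± 0.0904, while the mismatch repair nuclease Exo1 fell by 0.50 ± 0.111 (limma, adjusted p = 0.0312, 0.0351 and 0.0414). The list medians there were -0.13 for 7 end-joining genes, -0.04 for 6 excision-repair genes and -0.14 for 3 mismatch repair genes. None of these 16 genes was called by limma for CHIR99021 in BCR-negative cells. Of them 5 had an unadjusted p under 0.05, beside 19% of all genes. Nhej1 (-0.16), Lig4 (-0.55), Xpc (-0.24), Ercc5 (-0.24), Exo1 (0.40) and Pms2 (0.04) had the smallest p of their lists there.

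DNA replication genes had calls in the same comparisons. For BCR loss in untreated cultures all 27 measured had a negative change (median -0.33). Of them 25 were lower in all 3 lymphomas, beside 21.8% of all genes, and 25 had an unadjusted p under 0.05, beside 20.5%. Of these genes 10 were called lower by limma, beside 2.3% of all genes. Among the 10 were Ccne1 (-0.81 ± 0.136), the cyclin of S phase entry, the origin gene Orc1 (-0.71 ± 0.135), Gins3 (-0.54 ± 0.0940) and Rfc1 (-0.32 ± 0.0541). For CHIR99021 in BCR-negative cells 23 of the 27 changes were positive (median 0.23). There 14 genes had an unadjusted p under 0.05, beside 19% of all genes, and 4 were called higher, beside 1.91%. Those 4 were the same Ccne1, Orc1, Gins3 and Rfc1. All calls on the pathway lists, in both comparisons, ended without the lymphoma block, with only the 6 arrays compared, without lymphoma 2646 and without lymphoma 2676. With lymphoma as a random block, 2 replication genes were called for BCR loss and no list gene otherwise. Neither the 15 mitosis genes nor the 10 genes of the E2F and RB families had a called member in either comparison (limma). For BCR loss the mitosis median was -0.14, with Cdca8 at -0.30 and Aurka at -0.28. The median of the E2F and RB families was -0.15, with E2f3 at -0.45 and Tfdp1 at -0.22. At an unadjusted p under 0.05 (limma) there were 5 and 4 genes for BCR loss, beside 20.5% of all genes. For CHIR99021 there were 3 and 6, beside 19%. The mean level of the 27 replication genes was 9.34 to 9.41 in untreated BCR-positive cells, 8.78 to 9.18 in untreated BCR-negative cells, 9.24 to 9.35 in BCR-positive cells with CHIR99021 and 9.21 to 9.28 in BCR-negative cells with it. Its part in the changes of Fancb and the other members was not tested, and in sorted populations fewer cells in S phase and less RNA per cell cannot be told apart.

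**Figure D4:**
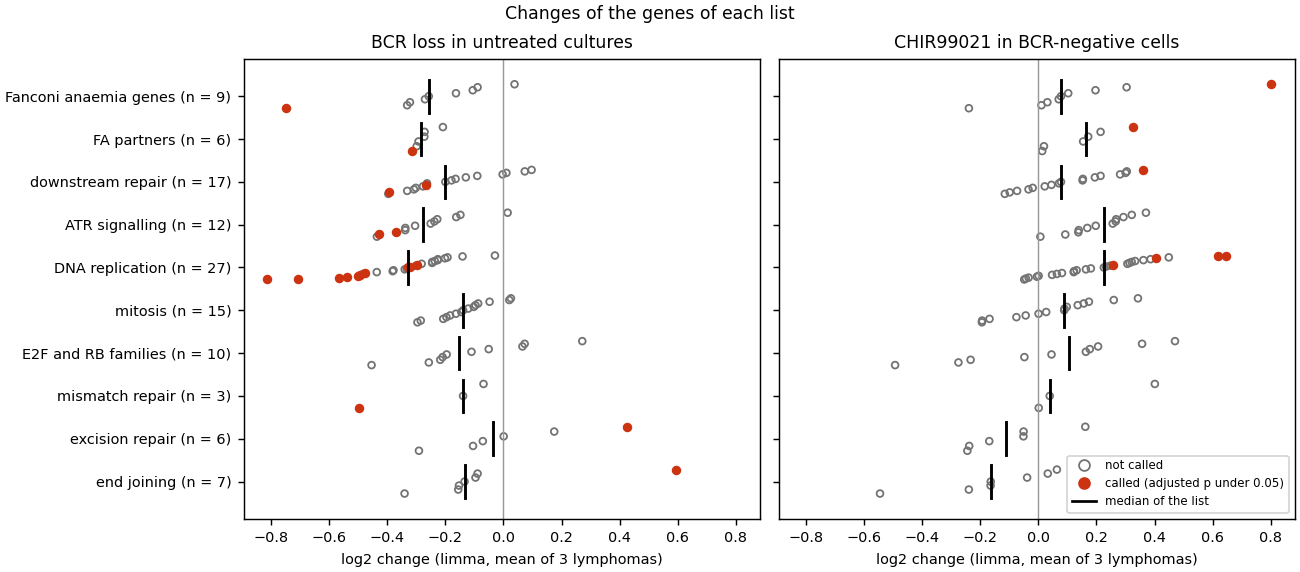
Log2 changes (limma, mean of 3 lymphomas) of the genes of each list for BCR loss in untreated cultures (left) and CHIR99021 in BCR-negative cells (right). Each circle is a gene, filled where it was called, and black bars are list medians, -0.26 and 0.08 for the 9 Fanconi anaemia genes, with Fancb at -0.75 and 0.80.

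In the comparisons other than these, limma called no gene of the partner, downstream, checkpoint, replication or other repair lists. The smallest p of the partner and downstream lists belonged to Faap20 (-0.15) and Mad2l2 (-0.25) for BCR loss with CHIR99021, to Cenps (-0.19) and Brca1 (-0.34) for CHIR99021 in BCR-positive cells, to Ube2t (0.29) and Rad51c (0.42) for the interaction, and to Cenps (-0.25) and Brca1 (-0.29) for treated BCR-negative against untreated BCR-positive cells. The nearest genes beside Fancb on the X chromosome had smaller changes. Mospd2 had the same signs as Fancb, with -0.09 for BCR loss in untreated cultures and 0.19 for CHIR99021 in BCR-negative cells. Glra2 had 0.02 and -0.05, and whether these cells express it was not examined. These neighbours were looked up after the values of Fancb were seen.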

How the data were processed

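Gene expression was measured on 12 Mouse Gene 1.1 ST arrays from Affymetrix. The authors deposited a log2 value for each probe set. The submitters' processing notes name RMA and Affymetrix Power Tools, without versions. RMA gives all arrays nearly the same distribution, so changes are relative to the bulk of genes. Of 35556 probe sets, the platform annotation lists 23099, 21218 with 1 symbol and 1881 with several, and the latter were left out. No symbol changed through Entrez identifiers. This left 18820 genes. A linear model with group and lymphoma as a fixed block was fitted to all 12 arrays with limma 3.58.1 in R 4.3.3, with eBayes and Benjamini-Hochberg adjustment over all 18820 genes for each of 6 comparisons, called at an adjusted p under 0.05. The pairing comes from the labels and the design text: each number is an independent lymphoma, and deviations from group means correlated at r of 0.813 to 0.907 between arrays of the same lymphoma (18 pairs). P-values rest on these 3 lymphomas only, with a spread that was estimated over all 12 arrays and moderated by eBayes with the other genes. The number of lymphomas limits the precision. The fit was tested on simulated data. Named were all measured members, the called genes of each list (at most 4 of smallest p, otherwise 2 of smallest p, given here for the lists that bear on each comparison) and the 5 genes most like the members. Members and lists were chosen with earlier results of these data known. Alternatives were no block, a random block, only the arrays compared, dim genes left out (below the 30th percentile), probe sets averaged per gene, array medians subtracted, cyclic loess, trend with robust, and each lymphoma or array left out.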

Additional observations from a re-analysis of the deposited data

How the results depend on the processing

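The 1 member called lower for BCR loss in untreated cultures and the 1 called higher for CHIR99021 in BCR-negative cells, Fancb both times, became 0 without the replicate block that pairs arrays by lymphoma and 0 with only the arrays compared. Both counts stayed at 1 with lymphoma as a random block, with dim genes left out, with array medians subtracted, after cyclic loess and with trend and robust. In these fits the change of Fancb ran from -0.78 to -0.71 and from 0.77 to 0.81. Averaging probe sets also left both counts at 1. It could not alter the members' own values, since each measured member had 1 probe set with a single symbol. Over 15 fits that left out a lymphoma or an array the counts ran from 0 to 4 and from 0 to 2, and the change of Fancb from -0.90 to -0.57 and from 0.63 to 0.95. In the other comparisons limma called 0 members in each fit run. The interaction was not fitted with only the arrays compared, since it uses all 12. Over all genes, the 791 calls for BCR loss in untreated cultures and the 692 for CHIR99021 in BCR-negative cells became 5 and 3 without the block, 75 and 81 with a random block, 0 and 29 with only the arrays compared, and 0 and 0 without lymphoma 2646. The 10 and 4 replication genes called ran from 0 to 17 and from 0 to 6 over the fits that left out a lymphoma or array, a check chosen after seeing the data. Among members, signs turned only for changes that were not called. Subtraction of array medians gave Fancd2 -0.018 for BCR loss with CHIR99021, and cyclic loess gave Fanca -0.0241 and Fancf -0.00979 for CHIR99021 in BCR-negative cells. Leaving out a lymphoma or array turned signs within these ranges. For BCR loss in untreated cultures they were Fancc -0.0644 to 0.0931 and Fancl -0.22 to 0.00693. With CHIR99021 they were Fancb -0.14 to 0.0561, Fancc -0.11 to 0.0436, Fancd2 -0.0757 to 0.0872, Fancf -0.13 to 0.059, Fancg -0.0462 to 0.13 and Fancm -0.0579 to 0.14. For CHIR99021 in BCR-positive cells they were Fancb -0.00323 to 0.20 and Fancf -0.12 to 0.00148, and in BCR-negative cells Fanca -0.14 to 0.11, Fancf -0.0588 to 0.11 and Fancm -0.0297 to 0.24. For the interaction they were Fancc -0.15 to 0.0487, Fance -0.0307 to 0.20 and Fancf -0.00938 to 0.16. For treated BCR-negative against untreated BCR-positive cells they were Fance -0.00643 to 0.0799, Fancf -0.16 to 0.014, Fancg -0.17 to 0.0224 and Fancl -0.13 to 0.0455. The cause of these shifts was not tested.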
